A study of Homo sapiens with 6 samples.

Results

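The genes described here are 8 mouse genes read as markers of how macrophages are activated, together with the cytokines these cells release. They are Arg1 (ENSMUSG00000019987), Chil3 (ENSMUSG00000040809), Retnla (ENSMUSG00000061100), Il10 (ENSMUSG00000016529), Nos2 (ENSMUSG00000020826), Tnf (ENSMUSG00000024401), Il1b (ENSMUSG00000027398) and Il6 (ENSMUSG00000025746). Each was chosen by its Ensembl ID, without the version number, and all 8 were found among the 77134 rows of the count table. Gene symbols follow that list of IDs, since the table itself gives no names.

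The samples were 6 tumours formed under the skin of BALB/c nude mice by A549 cells, a human lung adenocarcinoma line. In the control group (3 tumours) the cells carried the lentiviral vector pLV-CMV-EGFP-Neo. In the overexpression group (3 tumours) they carried pLV-CMV-HIF1A-AS3-EGFP-Neo, in which the CMV promoter drives HIF1A-AS3, a noncoding RNA read antisense to human HIF1A. Cells of both groups were thus infected stable lines with EGFP and Neo, and the modified cells were the human tumour cells, not the host. Nude mice lack a thymus and most T cells but keep macrophages and other innate cells. The labels used here state neither host age nor whether a line was 1 clone or a pool. All rows of the table carry mouse IDs, so HIF1A-AS3 was not measured here and the group labels were not checked against it. The study's title links the RNA to loss of macrophage activity and lung cancer progression, and the groups were compared here for these macrophage genes.

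Macrophages respond to interferon-gamma and bacterial products with an inflammatory programme, and to interleukin-4 and interleukin-13 with an alternative one that is tied to repair and to tolerance of tumours. In mice Nos2 and Arg1 are the textbook readouts of these programmes, because both enzymes use arginine: the first makes nitric oxide and the second ornithine. Cells in a tumour commonly carry parts of both programmes at once, so neither name describes a fixed cell type. None of the 8 genes is made by macrophages alone; fibroblasts, neutrophils and others also make some of them.

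Libraries held 4167784 to 4262778 estimated counts in controls and 4272525 to 4769157 in overexpression tumours, all on mouse genes. Overexpression replicate 1 stood apart, with the lowest mean Pearson r to the other libraries across genes (0.906, against 0.922 to 0.939) and a TMM scaling factor of 0.742 against 1.02 to 1.10. Overexpression replicate 2 resembled the controls (mean r 0.951) more than its own group (0.908), and replicate 3 correlated about equally with both (0.923 and 0.920). The labels do not tie tumours to separate mice, and p-values therefore reflect the spread between tumours only, which may be partly technical. In bulk tissue, fewer cells of a type and less RNA per cell cannot be told apart. A549 reads that match a mouse gene closely would also be counted there, and their part in these values was not tested.

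Detection was uneven. Arg1, Nos2, Tnf, Il1b and Il6 had counts in all 6 libraries, Il10 in 5, Chil3 in 4 and Retnla in 3. By library, 8, 8 and 7 of the genes were above 0 in controls 1, 2 and 3, and 6, 6 and 7 in overexpression replicates 1, 2 and 3. Of all rows, 24.6%, 24.4% and 24.7% were above 0 in the same controls, and 22.6%, 24.4% and 24.5% in the same overexpression replicates. Overexpression replicate 1 also had the smallest library size after TMM scaling (3520834, against 4347676 to 4745240). For comparison, 18.4% of all rows, and 55.8% of the 25492 rows above 0 in some library, had counts in every library. Only Arg1 and Il1b reached 10 counts in all 6 libraries. The same held for 14.1% of all rows and 42.6% of the rows above 0 in some library. Chil3, Retnla and Il10 never reached 10 counts in a library, with 6, 12 and 9 counts over all libraries together. A count of 0 allows up to 3 counts, which was 0.632 to 0.852 CPM in a single library (CPM, counts per 1000000 counts of a library, scaled by the TMM method). These limits, and the intervals on pooled counts below, cover counting error only.

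**Figure D1:**
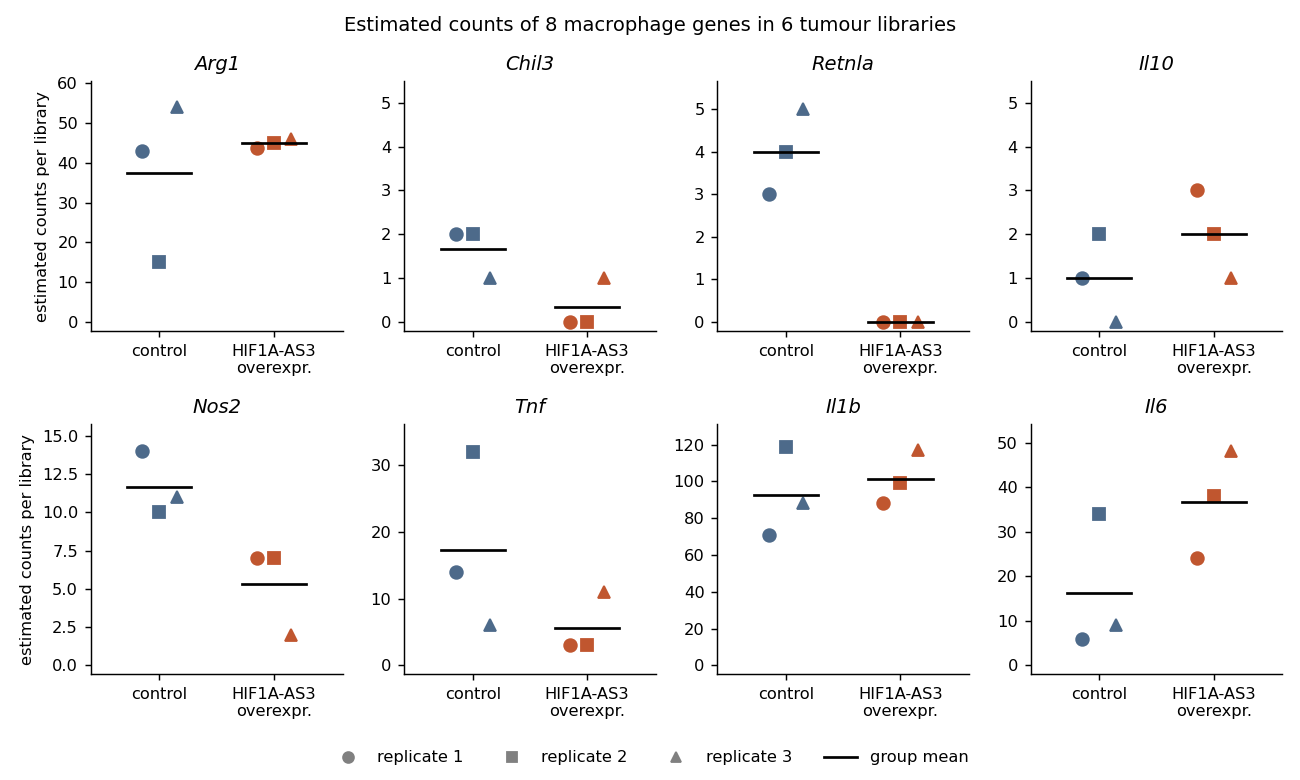
Estimated counts of the 8 genes (vertical axis, linear, a separate scale per gene) in the 3 control and 3 overexpression libraries; symbols mark the replicate number and bars the group mean. Retnla and Nos2 are the genes whose groups do not overlap, and control replicate 2 stands apart from the other controls for Arg1, Tnf and Il6.

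Between the groups, 0 of the 5 genes that could be tested passed the test, and the level of each is given with its interval. Of the 8, 5 passed the filter on low counts (Arg1, Nos2, Tnf, Il1b and Il6). The edgeR quasi-likelihood test with Benjamini-Hochberg adjustment over all 12637 genes tested called none of them at an adjusted p below 0.05, where 0.0158% of all genes were called. Before adjustment, 0 of the 5 had an edgeR p below 0.05, against 6.29% of all genes. DESeq2 and limma-voom also called none, with 0 and 1 of the 5 at an unadjusted p below 0.05 on the same genes. That DESeq2 fit was chosen after the data were seen. With no filter, edgeR gave 3 of the 8 genes (Retnla, Tnf and Il6) an unadjusted p below 0.05, and 1445 of 25492 rows. With DESeq2 on all rows, 1 of the 8 (Retnla) was below 0.05, and 977 rows in all. The mean CPM was higher in overexpression tumours for Arg1, Il10, Il1b and Il6 and lower for Chil3, Retnla, Nos2 and Tnf, that is 4 genes each way. Over all rows above 0 in some library, 49.4% had the higher mean in overexpression tumours.

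Among the genes of alternative activation, Arg1 encodes arginase 1, which turns arginine into ornithine and urea. Estimated counts were 43, 15 and 54 in controls 1, 2 and 3 and 43.7, 45 and 46 in overexpression replicates 1, 2 and 3. By count the overexpression libraries all lay within the control range, in CPM the groups overlapped, and control replicate 2 was the one low library. Its level was 8.10 ± 4.23 CPM (SD, n = 3) in the control group and 10.8 ± 1.48 CPM (SD, n = 3) with overexpression. edgeR put the log2 fold change at 0.41 (standard error 0.42; adjusted p = 0.81). Its 95% interval ran from 1.47-fold lower to 2.61-fold higher. Without control replicate 2 the log2 fold change was 0.05 and without control replicate 3 it was 0.77.

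Retnla encodes RELM-alpha, also called Fizz1, a secreted protein induced by interleukin-4. It was read at 3, 4 and 5 estimated counts in controls 1, 2 and 3 and at 0 in all 3 overexpression libraries. The groups therefore did not overlap, at a depth of a few counts. Groups were apart with overexpression lower in 4.73% of the rows above 0 in some library, and 24 of those rows (0.0941%) shared the stricter pattern of 0 in every overexpression library and 3 or more counts in every control. The mirror pattern, 0 in every control and 3 or more counts in every overexpression library, occurred in 5 rows. Retnla also had a low-count pattern: 0 in every overexpression library and above 0 but at most 5 counts in every control. That pattern occurred in 87 rows, and its mirror in 49. Overexpression replicate 1 had the smallest scaled size, so 3 counts there were 0.852 CPM, against 0.632 to 0.690 CPM in the other libraries. Its part in the imbalance of both patterns was not tested. These patterns were chosen after the values of Retnla were seen. Pooled over the 3 libraries, controls held 12 counts, a pooled CPM of 0.876 (exact Poisson 95% interval 0.453 to 1.53). The 0 counts of the overexpression group allow a pooled CPM of up to 0.238 (3 counts over the group). The upper end of their exact two-sided Poisson 95% interval was 0.292 CPM. The limit of 0.238 CPM was 3.68-fold below the pooled control value, which leaves out the counting error of the controls. The exact 95% interval of the ratio, which takes that error in, began at 2.56-fold lower. The exact two-sided permutation p on CPM was 0.1, the smallest that 3 against 3 allows. Retnla failed the filter on low counts; with no filter its adjusted p was 0.72 in edgeR (unadjusted p 0.0069) and with DESeq2 on all rows it was 0.93 (unadjusted p 0.031).

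Chil3 encodes Ym1, a chitinase-like protein secreted by alternatively activated mouse macrophages and by some lung and bone marrow cells. Its estimated counts were 2, 2 and 1 in controls and 0, 0 and 1 in overexpression replicates 1, 2 and 3. The groups met at 1 count. Pooled, the ratio was 5 counts against 1, which is 4.60-fold lower in overexpression tumours with an exact 95% interval from 1.94-fold higher to 218-fold lower, so no difference was detectable at this depth. Chil3 and Retnla both have close relatives in the mouse genome. The sources used here do not say how reads shared with those were split, and all estimates for both genes were whole numbers.

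Il10 encodes interleukin-10, a cytokine that damps inflammatory signalling in macrophages and is made by several activated immune cells. It was read at 1, 2 and 0 estimated counts in controls 1, 2 and 3 and at 3, 2 and 1 in overexpression replicates 1, 2 and 3. The groups overlapped, and the pooled ratio of 6 to 3 counts was 2.17 with an exact 95% interval from 0.464 to 13.4. These data therefore do not settle the direction for Il10.

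**Figure D2:**
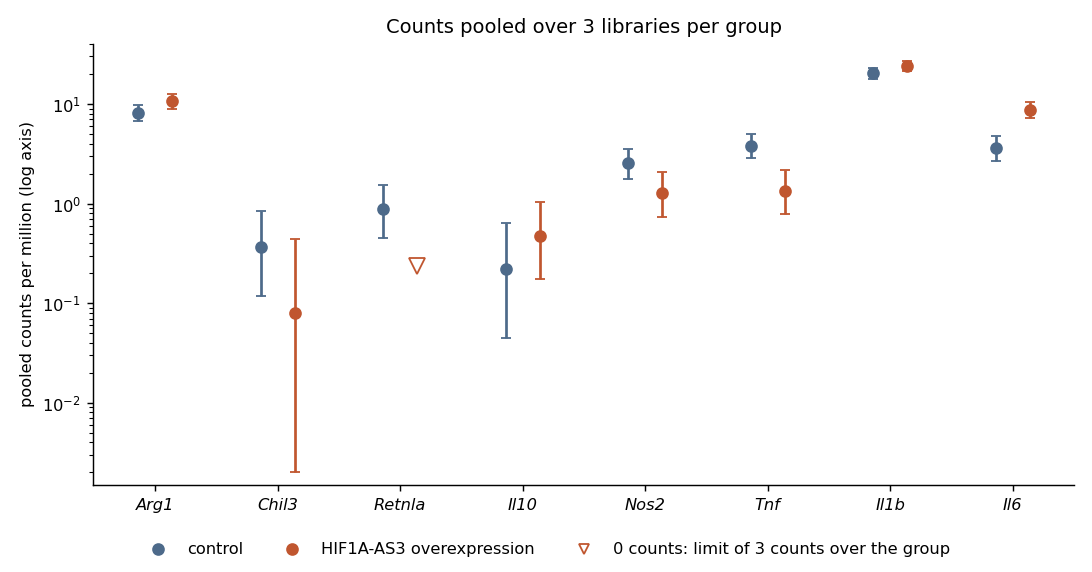
CPM pooled over the 3 libraries of each group (vertical log axis) for the 8 genes, with exact Poisson 95% intervals that cover counting error only and leave out the spread between tumours. The open triangle for Retnla marks the limit of 3 counts over the group, 0.238 CPM, against 0.876 CPM in controls.

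Among the genes of inflammatory activation, Nos2 encodes inducible nitric oxide synthase. Controls 1, 2 and 3 held 14, 10 and 11 estimated counts and overexpression replicates 1, 2 and 3 held 7, 7 and 2. All 3 overexpression libraries lay below all 3 controls, as was the case, with overexpression lower, for 6.39% of the genes tested. The level was 2.55 ± 0.416 CPM (SD, n = 3) in the control group and 1.31 ± 0.778 CPM (SD, n = 3) with overexpression, and the exact two-sided permutation p was 0.1, the smallest possible. The edgeR estimate of the log2 fold change was -0.97 (standard error 0.56; adjusted p = 0.70). Its 95% interval ran from 4.84-fold lower to 1.26-fold higher. Nos2 had 10 or more counts in the controls and in no overexpression library, so it entered the test through the group where it was higher. Leaving out overexpression replicate 3, the lowest library, moved the log2 fold change to -0.57.

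Tnf encodes tumour necrosis factor, an early cytokine of inflammatory activation. It was read at 14, 32 and 6 estimated counts in controls 1, 2 and 3 and at 3, 3 and 11 in overexpression replicates 1, 2 and 3. Overexpression replicates 1 and 2 were below every control, and replicate 3 lay inside the control range. The level was 3.85 ± 3.06 CPM (SD, n = 3) in the control group and 1.34 ± 1.04 CPM (SD, n = 3) with overexpression. In edgeR its log2 fold change was -1.49 (standard error 0.77; adjusted p = 0.70). Its 95% interval ran from 9.71-fold lower to 1.22-fold higher, the widest of the 5 genes. The value moved with single libraries: without control replicate 2 the log2 fold change was -0.67, and without overexpression replicate 3 it was -2.35.

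Il1b encodes interleukin-1 beta, made as an inactive precursor and released after cleavage by caspase-1, so its RNA does not measure the active cytokine. Its estimated counts were 71, 119 and 88 in controls 1, 2 and 3 and 88, 99 and 117 in overexpression replicates 1, 2 and 3. In CPM controls 1 and 3, at 15.4 and 18.9, were below every overexpression library (25.0, 20.9 and 26.9 in replicates 1, 2 and 3), and control replicate 2, at 26.9, lay among them. The level was 20.4 ± 5.92 CPM (SD, n = 3) in the control group and 24.3 ± 3.09 CPM (SD, n = 3) with overexpression. Il1b had the most counts of the 8 genes and the narrowest interval, from 1.26-fold lower to 1.78-fold higher. edgeR put the log2 fold change at 0.25 (standard error 0.25; adjusted p = 0.81). Without control replicate 2 the log2 fold change was 0.50 (adjusted p of 0.82).

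Il6 encodes interleukin-6, a cytokine that signals through STAT3 and is made by fibroblasts and endothelial cells as well as macrophages. Controls 1, 2 and 3 held 6, 34 and 9 estimated counts and overexpression replicates 1, 2 and 3 held 24, 38 and 48. Controls 1 and 3 were below every overexpression library, and control replicate 2 lay among them. The level was 3.64 ± 3.52 CPM (SD, n = 3) in the control group and 8.62 ± 2.18 CPM (SD, n = 3) with overexpression. The edgeR estimate of the log2 fold change was 1.25 (standard error 0.61; adjusted p = 0.70). Its 95% interval ran from 1.13-fold lower to 6.37-fold higher. Il6 had 10 or more counts in 1 control (replicate 2) and in all 3 overexpression libraries, so it entered the test through the group where it was higher. With control replicate 2 left out, no control reached 10 counts, and this replicate was seen to be high beforehand. Without control replicate 2 the log2 fold change was 2.40, with an unadjusted edgeR p of 0.00094 and an adjusted p of 0.42. It was 0.85 without control replicate 1 and 0.95 without control replicate 3, with unadjusted edgeR p values of 0.19 and 0.20 and adjusted p values of 1.00 each.

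**Figure D3:**
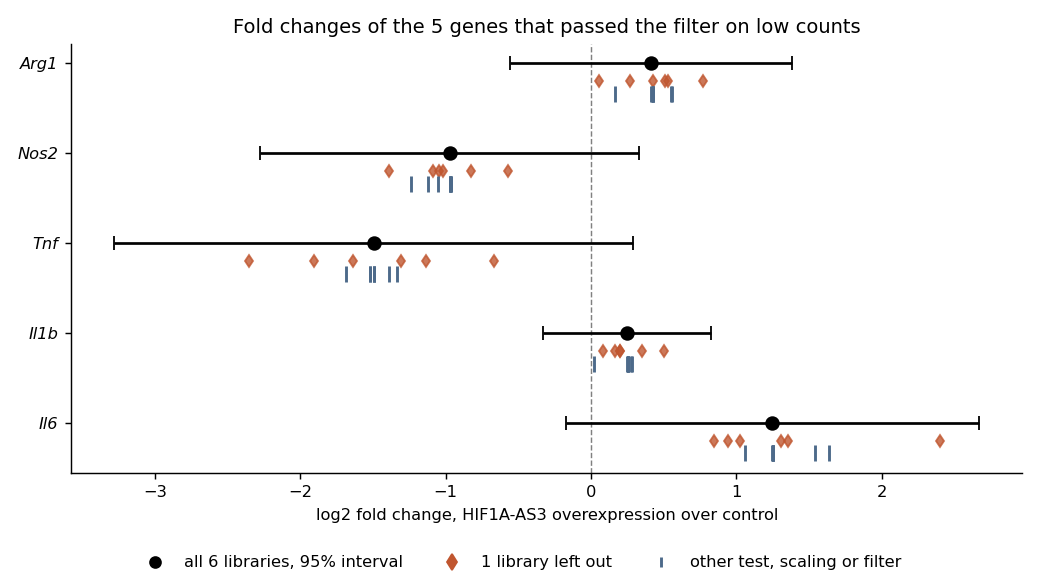
Log2 fold change of overexpression over control (horizontal axis) for the 5 genes that passed the filter on low counts. Black points and bars are the edgeR estimate and its 95% interval from all 6 libraries, diamonds are fits with 1 library left out, and ticks are other tests, scalings or filters; all 5 intervals cross 0, and Il6 reaches 2.40 and Tnf -0.67 without control replicate 2.

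The control libraries were unlike in several of these genes, and whether more so than in other genes was not tested. Control replicate 2 had the lowest Arg1 of the 6 libraries, 3.39 CPM against 9.30 to 12.4 CPM in the others, and the highest Tnf, 7.24 CPM against 0.632 to 3.03 CPM. Its Il6 was 7.69 CPM against 1.30 and 1.93 CPM in controls 1 and 3, and its Il1b 26.9 CPM against 15.4 and 18.9 CPM. Across all genes tested, control replicate 2 had the lowest mean r to the other controls, 0.948 against 0.959 and 0.953 for controls 1 and 3. Its mean r to all other libraries was 0.936, against 0.939 and 0.935 for controls 1 and 3.

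A pair of shares within a library, which do not depend on how libraries are scaled, was chosen after the values were seen. Each pair joins a gene with a higher mean in overexpression tumours to one with a lower mean, so a gap between the groups restates the values above and adds no support to them. Of the Arg1 and Nos2 counts together, Arg1 held 75.4%, 60% and 83.1% in controls 1, 2 and 3, and 86.3%, 86.5% and 95.8% in overexpression replicates 1, 2 and 3. Averaged by group, the share was 72.8% ± 11.8 (SD, n = 3) in controls and 89.5% ± 5.44 (SD, n = 3) with overexpression. Control replicate 3 (exact Clopper-Pearson 95% interval 71.7% to 91.2%) and overexpression replicate 1 (73.7% to 94.3%) were within each other's counting error. Gene length enters each share equally in all libraries, so shares compare libraries and not the levels of the 2 genes.

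Of the Il6 and Tnf counts together, Il6 held 30%, 51.5% and 60% in controls 1, 2 and 3 and 88.9%, 92.7% and 81.4% in overexpression replicates 1, 2 and 3. Averaged by group, the share was 47.2% ± 15.5 (SD, n = 3) in controls and 87.6% ± 5.77 (SD, n = 3) with overexpression. Control replicate 2, which was high in both cytokines, had a share between those of the other controls. The interval of control replicate 3 reached 83.7%, since it rested on 15 counts, and so overlapped those of all 3 overexpression libraries.

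**Figure D4:**
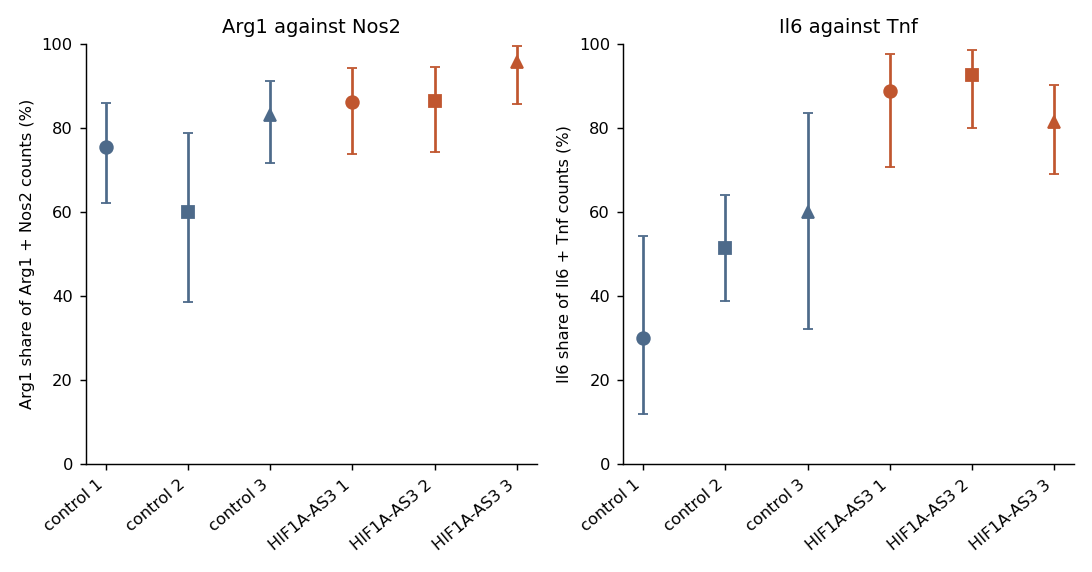
Share of Arg1 in the Arg1 and Nos2 counts (left) and of Il6 in the Il6 and Tnf counts (right), in percent, per library, with exact Clopper-Pearson 95% intervals for counting error. The pairs were chosen after the values were seen; the overexpression libraries range from 86.3% to 95.8% for Arg1 and from 81.4% to 92.7% for Il6, and the controls from 60% to 83.1% and from 30% to 60%.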

How the data were processed

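Total RNA of 6 tumours was sequenced, 1 library per tumour. The authors quantified reads as estimated counts per mouse gene before depositing 1 table without normalization, per the file headers. The table's name points to salmon; its version and annotation are not stated in the labels used here. The submitters' processing notes name DESeq2, edgeR, featureCounts 2.0.6, HISAT2 2.2.1, Trimmomatic 0.39 and the build mm10, with no roles. All 6 columns were matched to tumours by name. Of the 48 values of the 8 genes, 3 were not whole to within 0.001.

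Estimated counts were rounded and analysed in R 4.3.3 with edgeR 4.0.16: filterByExpr at its defaults (minimum count 10, minimum total 15), TMM scaling, and a robust quasi-likelihood F-test on group, with adjustment over 12637 genes. The script was tested on simulated data. Standard errors are the absolute log2 fold change over the square root of F. CPM divide estimated counts by library total over tested genes times TMM factor. Alternatives used DESeq2 1.42.0, limma 3.58.1, other scalings, no filter, a replicate block and leaving out each library. All 8 genes were named whatever their values. The genes and lists were chosen with earlier results of these data known. The name tables used here matched 0 of the mouse IDs, so marker lists set down by symbol (macrophages, other host cells, cytokine receptors), genes of similar pattern, gene positions and sequences were not analysed here.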

Additional observations from a re-analysis of the deposited data

How the results depend on the processing

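The number of genes called stayed at 0 under all 14 alternatives, and the 5 tested genes kept the direction of their fold change in each. Chil3, Retnla and Il10 could be called only with no filter and with DESeq2 on all rows. Elsewhere the count covers the other 5 genes alone. Log2 fold changes ranged over these from 0.05 to 0.77 for Arg1, -1.39 to -0.57 for Nos2, -2.35 to -0.67 for Tnf, 0.02 to 0.50 for Il1b and 0.85 to 2.40 for Il6, with lowest adjusted p values of 0.58, 0.43, 0.48, 0.49 and 0.34. All of these lowest values came from the edgeR fit without overexpression replicate 2. In that fit 2659 of all genes had an unadjusted p below 0.05, against 795 in the main fit. An unadjusted p below 0.05 occurred for Il6 in 4 alternatives and for Tnf in 3. Scaling by library totals alone moved the median over all genes (log2 fold change) from 0.01 to -0.21 and those of Arg1 and Il1b to 0.16 and 0.02, both still above that median. The number of all genes called, 2, was 4 with library totals only, 14 with no filter, 29 using DESeq2 and every row, 28 using DESeq2 and the filtered genes (an alternative chosen after seeing the data), 7 with limma-voom, 0 with a replicate block (where edgeR gave 414 genes an unadjusted p below 0.05) and 0 to 14 with 1 library left out; the cause was not tested. Of these calls, 1 of 4, 5 of 14, 8 of 29, 7 of 28 and 2 of 7 were higher in overexpression tumours, against 1 of 2. Under the block, the edgeR log2 fold change of Il6 was 1.54 (adjusted p = 0.95). The labels do not state that equal replicate numbers mark pairs, so the block was used only as an alternative. Deviations of same-numbered libraries from their group means correlated at r of -0.09, -0.34 and -0.10 in replicates 1, 2 and 3. With these depths, Chil3, Retnla and Il10 rest on 6 to 12 counts each.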
